A study of Mus musculus with 9 samples.

Results

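The 36 genes described here mark microglia and related brain macrophages or belong to the complement, Toll-like receptor and NF-kB pathways of inflammation. They were chosen by name, and all 36 names matched 1 row each of a table of 54532 genes counted in the hypothalamus of 9 ICR mice, an outbred stock, on postnatal day 21. Mothers of the HA pups ate a diet rich in fat and sucrose (HFHS, with fat giving 45% of calories), and the pups received 4-PBA, known as a chemical chaperone and an inhibitor of histone deacetylases. HP pups had HFHS-fed mothers and received PBS, and LP pups had mothers fed a low-fat diet (LFD, with fat giving 10% of calories) and also received PBS. All mice were wild type males, each group had 3 libraries, injections were daily from postnatal day 4 to 16, and dams ate their diet for 5 weeks before mating and through gestation and lactation, with 10 pups per litter. None of these 9 libraries is from pups of low-fat dams given 4-PBA. Which pups shared a litter is not given in the sources used here.

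Microglia are the resident macrophages of the brain. They settle there before birth, depend on signals through the receptor Csf1r, and in their resting state express a set of surface receptors such as P2ry12, Tmem119 and Cx3cr1. Complement proteins of the classical pathway tag synapses and debris for removal by microglia, and microglia are the main source of the C1q chains in the brain. Toll-like receptors signal through Myd88 to the IKK kinases, which release NF-kB from its inhibitor Nfkbia and so switch on cytokine genes such as Tnf, Il1b, Il6 and Ccl2. In adult rodents this axis in the hypothalamus is known for its response to dietary fat. A second macrophage population with high Mrc1 and Pf4 lives in the meninges and along vessels.

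Total counts lay between 18226924 and 21823961 per library. CPM values are counts scaled to the library's size, as corrected by TMM factors. Levels of different genes are compared as deposited FPKM, which divide by gene length. That length covers a gene's annotated exons and may exceed its main transcript, so the order of genes is approximate. Markers of hypothalamic neurons such as Agrp, Pomc, Hcrt and Oxt were present in every group, with a summed level of 916 to 1236 CPM in HA, 1040 to 1201 CPM in HP and 955 to 1151 CPM in LP (9 of 9 markers tested). HA replicate 3 and LP replicate 3 stood apart in markers of meningeal fibroblasts (8 of 8 tested), whose summed CPM was 80.02, 96.6 and 1014 in HA, 76.4, 106 and 142 in HP and 70.2, 86.0 and 458 in LP. HA replicate 3 was also highest in the summed markers of mural cells (501 CPM against 174 to 289 CPM in the other libraries, 6 of 6 tested), endothelial cells (353 CPM against 245 to 294 CPM in the other libraries, 8 of 8 tested) and pituitary cells (41.3 CPM against 8.52 to 21.3 CPM in the other libraries, 2 of 3 tested). It was lowest in those of oligodendrocytes (11340 CPM against 12910 to 20130 CPM in the other libraries, 6 of 6 tested) and neurons (2581 CPM against 2716 to 3061 CPM in the other libraries, 6 of 6 tested). The part of these markers in the values of HA replicate 3 was not tested. Many estimates of border macrophage, complement and NF-kB genes, but not all, are also given without HA replicate 3 or LP replicate 3. Markers of striatal neurons (6 of 6 tested) were highest in LP replicates 1 and 2, with a summed CPM of 137, 133 and 148 in HA, 139.9, 138 and 148 in HP and 258, 354 and 142 in LP, and their part in the comparisons with LP was not tested. Sample titles also carry a code whose meaning is not stated. HA and HP share the codes Hg43 (replicates 1 and 2 of each) and Hg13 (replicate 3 of each), whereas LP has Lg42 and Lg63, so in any comparison with LP the code and the diet of the dams cannot be told apart.

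The homeostatic microglial genes stood at similar levels in the 3 groups. Of 11 genes, 11 passed the filter on low counts, and 0 were called (adjusted p under 0.05) in HA against HP, HA against LP or HP against LP, beside 0.0114%, 0% and 0.0114% of all genes tested. Cx3cr1, the receptor for the neuronal chemokine fractalkine, stood at 35.1 ± 0.588 CPM in HA, 36.2 ± 2.64 CPM in HP and 37.6 ± 3.76 CPM in LP (SD, n = 3 each). Tmem119, a surface protein used to tell microglia from other macrophages, stood at 24.2 ± 0.942 CPM in HA, 22.6 ± 0.764 CPM in HP and 24.2 ± 1.91 CPM in LP (SD, n = 3 each). The median log2 fold change of the 11 genes was -0.044 in HA against HP, -0.089 in HA against LP and -0.054 in HP against LP, beside 0.0027, 0.0057 and -0.0024 over all 17546 genes tested.

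Over all roles, 32 of the 36 genes passed the filter and 0 were called at an adjusted p under 0.05 in any of the 3 comparisons (edgeR quasi-likelihood test, Benjamini-Hochberg over all genes tested). These were edgeR tests on the deposited counts, and they called at most 0.0114% of all genes tested in a comparison. DESeq2 also called 0 of the 32 genes in each comparison. At an unadjusted p under 0.05 there was 1 of 32 genes in HP against LP beside 6.12% of all genes, 0 of 32 in HA against HP beside 5.42%, and 0 of 32 in HA against LP beside 6.51%. All HA libraries lay above all HP libraries for 0 of 32 genes beside 5.92% of all genes, and below them for 0 beside 5.89%. All HA libraries lay above all LP libraries for 0 beside 5.4%, and below them for 0 beside 5.51%. All HP libraries lay above all LP libraries for 0 beside 5.93%, and below them for 1, Trem2, beside 5.83%. At the unadjusted threshold and in these counts of libraries, each share of the 32 genes lay below that of all genes. In whole hypothalamus, fewer cells of a type and less RNA per cell cannot be told apart.

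**Figure D1:**
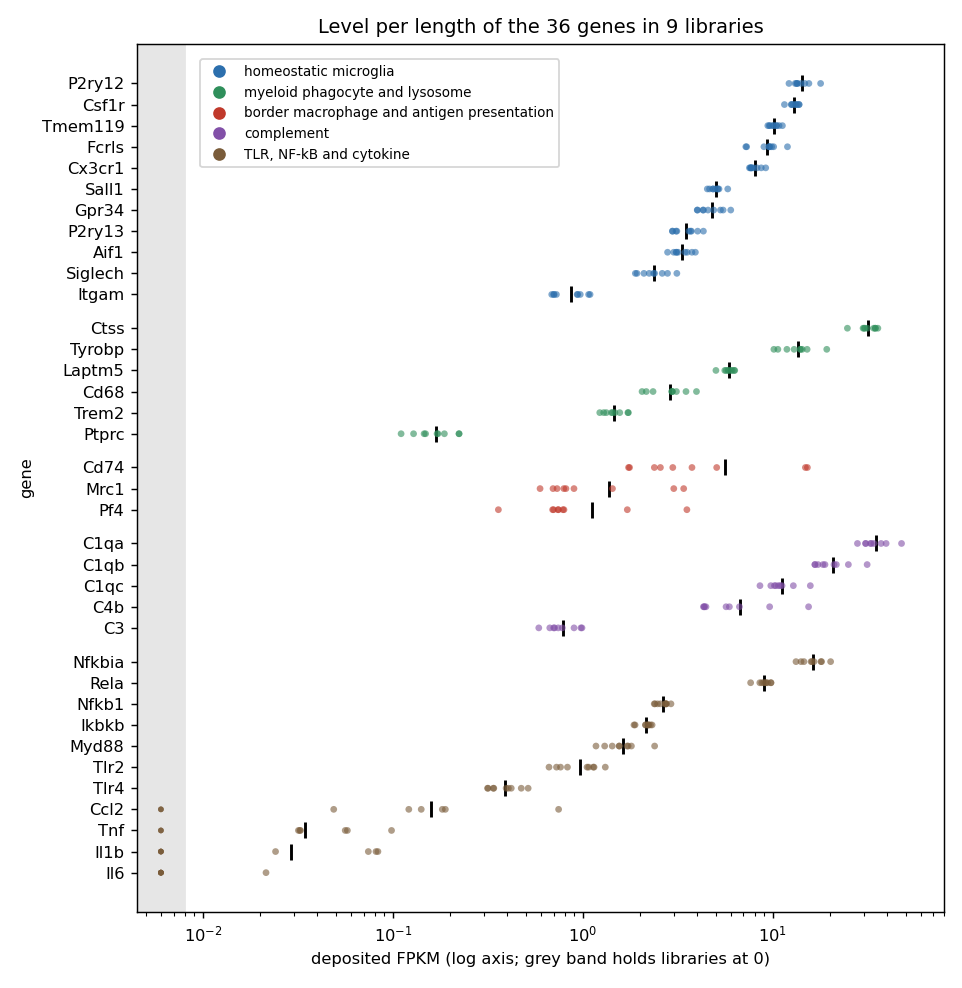
Deposited FPKM (log axis) of the 36 genes, coloured by role and ordered by mean within each role. Points are the 9 libraries, black ticks are the means over them (that of Il6 lies below the axis), and libraries at 0 stand in the grey band. C1qa and Ctss have the highest means at 34.8 and 31.7 FPKM, while Tnf, Il1b and Il6 lie below 0.1 FPKM in every library.

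Levels per length spanned a wide range within each role. C1qa averaged 34.8 FPKM over the 9 libraries (27.9 to 47.6) and Ctss, the lysosomal protease cathepsin S, 31.7 FPKM (24.7 to 35.7), and their ranges overlapped. C1qb followed at 20.7 FPKM and Nfkbia at 16.3 FPKM. Among the homeostatic genes P2ry12, the ADP receptor that guides microglial processes to injury, was highest at 14.2 FPKM (12.1 to 17.8). Csf1r, the receptor for the survival factors CSF1 and IL-34, had 12.95 FPKM (11.5 to 13.7), Tmem119 10.2 FPKM (9.40 to 11.2), Fcrls 9.34 FPKM (7.20 to 11.9) and Cx3cr1 8.03 FPKM (7.52 to 9.16). Neighbours in this order overlapped over libraries, except that all values of Csf1r lay above those of Tmem119. Itgam, the CD11b integrin chain, was lowest of them at 0.868 FPKM (0.685 to 1.09) and did not overlap any other homeostatic gene. Its level and place are uncertain, because 68.7% of its exon bases are shared with another gene model on the same strand. The receptor Tlr4, which recognizes bacterial endotoxin, had 0.390 FPKM, and Ptprc, the CD45 phosphatase that microglia share with other macrophages, 0.168 FPKM. The plot of FPKM by role shows all 36 genes.

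The promoters shown here belong to genes whose values the sections on complement, border macrophages and NF-kB turn on. C1qb and C1qc are neighbours on chromosome 4 and their library values went together, Mrc1 marks border macrophages and had a wide spread over libraries, and Nfkbia and Il6 are targets of NF-kB that stood at opposite ends of the range of levels. Each sequence is the 250 bases before the RefSeq start (GRCm38.p6), written 5′ to 3′ on the gene's strand. Capitals mark the letters GAGGAAG, the core bound by the macrophage factor PU.1, or a form of the NF-kB site (GGGA, any 4 bases, then CC), each searched on both strands with overlapping matches allowed. The windows are chr4:136886201-136886450, minus strand for C1qb, chr4:136892915-136893164, minus strand for C1qc, chr2:14229164-14229413, plus strand for Mrc1, chr12:55492648-55492897, minus strand for Nfkbia and chr5:30012864-30013113, plus strand for Il6.
C1qb: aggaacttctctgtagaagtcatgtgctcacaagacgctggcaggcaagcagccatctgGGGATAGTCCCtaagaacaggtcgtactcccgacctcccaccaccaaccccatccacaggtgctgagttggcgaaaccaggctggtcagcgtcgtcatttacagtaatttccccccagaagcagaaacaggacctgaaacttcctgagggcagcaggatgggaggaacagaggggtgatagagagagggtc
C1qc: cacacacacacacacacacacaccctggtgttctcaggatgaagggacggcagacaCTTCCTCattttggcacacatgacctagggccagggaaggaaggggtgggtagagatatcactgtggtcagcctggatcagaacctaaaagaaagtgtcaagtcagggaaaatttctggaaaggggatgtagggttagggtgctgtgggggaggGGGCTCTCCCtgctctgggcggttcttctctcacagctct
Mrc1: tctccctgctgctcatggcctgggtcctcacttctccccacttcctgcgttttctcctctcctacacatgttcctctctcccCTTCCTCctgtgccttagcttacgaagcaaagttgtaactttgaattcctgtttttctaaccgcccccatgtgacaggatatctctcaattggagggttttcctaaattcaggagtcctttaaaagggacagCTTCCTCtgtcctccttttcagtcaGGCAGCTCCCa
Nfkbia: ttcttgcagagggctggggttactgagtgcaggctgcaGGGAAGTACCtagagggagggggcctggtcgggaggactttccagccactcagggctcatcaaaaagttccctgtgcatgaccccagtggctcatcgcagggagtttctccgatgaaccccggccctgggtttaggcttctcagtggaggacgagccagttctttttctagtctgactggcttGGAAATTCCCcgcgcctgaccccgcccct
Il6: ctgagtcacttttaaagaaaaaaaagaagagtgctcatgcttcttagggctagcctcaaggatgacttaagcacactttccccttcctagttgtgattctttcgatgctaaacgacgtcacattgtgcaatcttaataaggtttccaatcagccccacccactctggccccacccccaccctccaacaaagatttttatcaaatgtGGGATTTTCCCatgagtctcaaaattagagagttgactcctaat
The RefSeq table held 28 promoter windows for 25 of the 36 genes. The PU.1 core was in 9 of these 28 windows and in 10.6% of all 32851 windows of the same length. The NF-kB letters were in 9 of 28 and in 17.6% of all windows. The printed windows hold NF-kB letters in C1qb, C1qc, Mrc1, Nfkbia and Il6, and the PU.1 core in C1qc and Mrc1, which has 2 copies. In Nfkbia the matches began 212 and 29 bases before the start, and in Il6 2 overlapping matches on opposite strands began 44 and 43 bases before it. A match is a description of letters and not a bound site.

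Among single homeostatic genes, Fcrls, an Fc receptor-like gene of mouse microglia (ENSMUSG00000015852, chromosome 3, 87250758 to 87263738, GRCm38, protein-coding), had the smallest p. It stood at 23.1, 22.3 and 22.6 CPM in the HA libraries, 22.4, 16.9 and 17.1 CPM in the HP libraries and 21.0, 28.0 and 23.6 CPM in the LP libraries. HP replicates 2 and 3 were lower than every HA and LP library, and HP replicate 1 lay within their range. The log2 fold change was -0.37 (SE 0.13, adjusted p = 0.782) in HP against LP and 0.27 (SE 0.13, adjusted p = 0.84) in HA against HP, so neither passed. HA and LP differed by -0.094 (SE 0.13, adjusted p = 0.909). Without HA replicate 3 and LP replicate 3 together the estimates were -0.39, 0.28 and -0.11 in the same order.

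P2ry12 (chromosome 3, 59216272 to 59262871) stood at 37.6, 35.9 and 33.5 CPM in the HA libraries, 39.5, 34.4 and 31.1 CPM in the HP libraries and 34.0, 45.6 and 34.2 CPM in the LP libraries. LP replicate 2 was the highest library and HP replicate 3 the lowest, and all groups overlapped. Its log2 fold changes were 0.030 (SE 0.12, adjusted p = 0.979) in HA against HP, -0.089 (SE 0.12, adjusted p = 0.91) in HA against LP and -0.12 (SE 0.12, adjusted p = 0.916) in HP against LP. Tmem119 stood at 23.2, 24.2 and 25.1 CPM in the HA libraries, 22.5, 23.4 and 21.9 CPM in the HP libraries and 22.2, 24.3 and 26.0 CPM in the LP libraries, a span of 1.19-fold between the lowest and the highest library. Csf1r stood at 56.3, 64.3 and 67.5 CPM in the HA libraries, 61.4, 67.2 and 62.5 CPM in the HP libraries and 61.3, 66.0 and 64.8 CPM in the LP libraries, with HA replicate 1 lowest and HA replicate 3 highest. For Csf1r the 95% interval of the fold change was 0.882 to 1.10 in HA against HP, 0.878 to 1.09 in HA against LP and 0.893 to 1.11 in HP against LP. About 15.1% of the annotated exon bases of Csf1r lie in exons of Hmgxb3 on the other strand, and without strand the reads there cannot be told apart.

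Cx3cr1 stood at 35.7, 34.6 and 34.8 CPM in the HA libraries, 39.2, 35.0 and 34.4 CPM in the HP libraries and 34.0, 41.5 and 37.2 CPM in the LP libraries. The groups overlapped, and the 95% interval of its fold change was 0.855 to 1.10 in HA against HP, 0.824 to 1.06 in HA against LP and 0.851 to 1.09 in HP against LP. Siglech, a sialic acid-binding receptor of microglia, stood at 6.40, 8.07 and 6.55 CPM in the HA libraries, 9.46, 8.86 and 7.58 CPM in the HP libraries and 7.99, 10.6 and 7.10 CPM in the LP libraries. HA replicates 1 and 3 were the lowest libraries and HA replicate 2 lay within the other groups. Its log2 fold change was -0.30 (SE 0.17, adjusted p = 0.84) in HA against HP and -0.29 (SE 0.17, adjusted p = 0.816) in HA against LP. Sall1, a transcription factor that maintains microglial identity, had 0.13 (SE 0.085, adjusted p = 0.886) in HP against LP. Gpr34, a lysophospholipid receptor, had -0.21 (SE 0.16, adjusted p = 0.886) in HP against LP and 0.22 (SE 0.16, adjusted p = 0.842) in HA against HP. Aif1, the calcium-binding protein IBA1 used to stain microglia, had -0.18 (SE 0.15, adjusted p = 0.854) in HA against LP. P2ry13, another ADP receptor, and Itgam overlapped between all groups as well. Of the exon bases of Itgam 68.7% are shared with Gm49368 on the same strand, a gene model with 0.2 counts on average. How reads in shared bases were counted is not given in the sources used here, so the value of Itgam is uncertain.

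These intervals reflect the spread among these libraries alone, and which pups shared a litter is not given in the sources used here. The whole 95% interval lay within a 1.5-fold change in either direction for 9 of 11 homeostatic genes in HA against HP, for 9 of 11 in HA against LP and for 10 of 11 in HP against LP. The exceptions were Itgam and Siglech in both comparisons of HA and Fcrls in HP against LP. The mean deviation of the 11 genes from their own mean over the 9 libraries, on the log2 scale, was -0.020, -0.013 and -0.060 in HA, 0.073, 0.0098 and -0.13 in HP and -0.11, 0.23 and 0.026 in LP. LP replicate 2 was the highest library on this list and held the highest value of 7 of the 11 genes, beside 11.2% of all genes tested. HA replicate 3 held the highest value of 1 of the 11 genes, beside 18.2% of all genes tested.

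**Figure D2:**
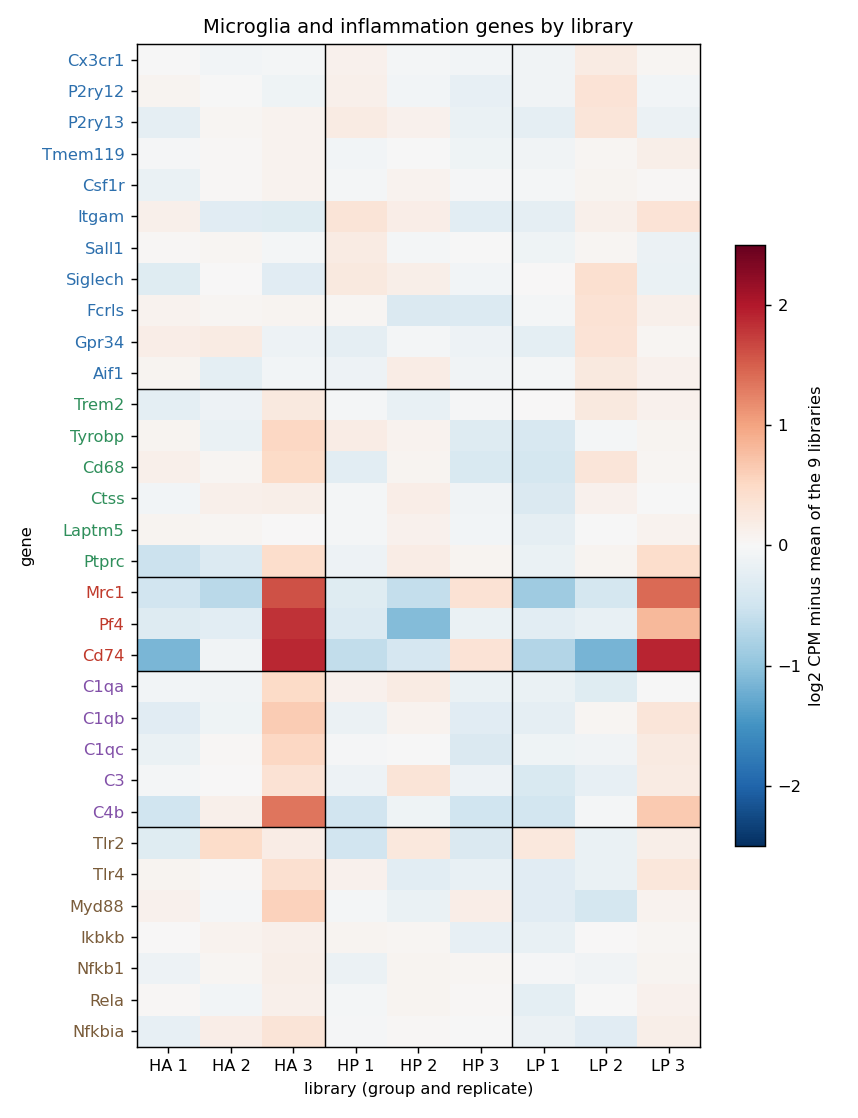
Log2 CPM of the 32 tested genes minus each gene's mean over the 9 libraries, with libraries in columns (HA, HP, LP) and genes in rows coloured by role in the order homeostatic, phagocyte, border macrophage, complement, NF-kB. HA replicate 3 and LP replicate 3 stand out in Mrc1, Pf4, Cd74 and C4b, while the homeostatic rows stay near 0 in all libraries.

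Genes of phagocytosis and lysosomes that microglia share with other macrophages were also without a call. In each comparison 0 of 6 were called, beside at most 0.0114% of all genes tested. Trem2, a lipid-sensing receptor, stood at 6.08, 6.58 and 8.57 CPM in the HA libraries, 7.01, 6.38 and 7.11 CPM in the HP libraries and 7.30, 8.62 and 7.74 CPM in the LP libraries. Each HP library was below each LP library, a log2 difference of -0.21 (SE 0.15, adjusted p = 0.886), and HA overlapped both groups. Its signalling partner Tyrobp, an adaptor with an activating motif, stood at 9.35, 7.91 and 12.9 CPM in the HA libraries, 10.1, 9.54 and 7.11 CPM in the HP libraries and 6.77, 8.67 and 9.30 CPM in the LP libraries, and HA replicate 3 was the highest library. The log2 fold change of Tyrobp was 0.17 (SE 0.21, adjusted p = 0.901) in HA against HP and 0.29 (SE 0.21, adjusted p = 0.834) in HA against LP. Without HA replicate 3 these were -0.043 and 0.069, and without LP replicate 3 that in HA against LP was 0.38. Cd68, a lysosomal membrane protein, had 0.42 (SE 0.23, adjusted p = 0.84) in HA against HP, 0.28 without HA replicate 3, and -0.19 (SE 0.23, adjusted p = 0.934) in HP against LP. Ctss had 0.14 (SE 0.12, adjusted p = 0.851) in HA against LP and 0.093 (SE 0.12, adjusted p = 0.936) in HP against LP. Laptm5, another lysosomal membrane protein, spanned 1.26-fold over the 9 libraries, and Ptprc, at 44 to 77 counts per library, had -0.14 (SE 0.28, adjusted p = 0.945) in HA against HP and -0.50 without HA replicate 3.

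The 3 genes of border macrophages and antigen presentation had the widest spread over libraries. Their median coefficient of variation was 87.4%, against 11.8% for the homeostatic genes. In each comparison 0 of 3 were called, beside at most 0.0114% of all genes tested. Mrc1, the mannose receptor CD206 (ENSMUSG00000026712, chromosome 2, 14229392 to 14332057), whose promoter is printed above, stood at 5.06, 4.44 and 21.7 CPM in the HA libraries, 5.73, 4.67 and 9.15 CPM in the HP libraries and 3.80, 5.21 and 19.2 CPM in the LP libraries. HA replicate 3 and LP replicate 3 were above all others, and HP replicate 3 came next. Cd74, the invariant chain of MHC class II, stood at 2.49, 5.29 and 21.0 CPM in the HA libraries, 3.62, 4.20 and 7.16 CPM in the HP libraries and 3.36, 2.46 and 21.4 CPM in the LP libraries, with the same 2 libraries highest. Pf4, a chemokine of platelets and border macrophages, stood at 11, 10 and 48 counts in the HA libraries, 9, 5 and 11 counts in the HP libraries and 11, 12 and 23 counts in the LP libraries, again highest in HA replicate 3 and then LP replicate 3. In the same libraries the proteoglycan gene Dcn, a marker of meningeal fibroblasts, was at 14.4, 18.6 and 124 CPM in the HA libraries, 12.9, 20.2 and 20.4 CPM in the HP libraries and 12.8, 15.7 and 45.4 CPM in the LP libraries. Of the 8 border macrophage markers outside the 36 genes 7 were tested and none was at 0 in all libraries. Their summed CPM was 20.5, 23.7 and 88.6 in HA, 23.3, 29.6 and 35.9 in HP and 18.5, 26.1 and 57.6 in LP, and the part of these markers and of meningeal tissue in the values of Mrc1, Cd74 and Pf4 was not tested.

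Group estimates of these genes followed those libraries. In HA against HP the log2 fold changes were 0.67 (SE 0.71, adjusted p = 0.882) for Mrc1, 0.94 (SE 0.89, adjusted p = 0.868) for Cd74 and 1.41 (SE 0.69, adjusted p = 0.84) for Pf4. In HP against LP they were -0.52 (SE 0.71, adjusted p = 0.941), -0.85 (SE 0.89, adjusted p = 0.916) and -0.79 (SE 0.71, adjusted p = 0.902). In HA against LP they were 0.15 (SE 0.69, adjusted p = 0.978), 0.082 (SE 0.86, adjusted p = 0.992) and 0.62 (SE 0.64, adjusted p = 0.872). Without HA replicate 3 the estimates in HA against HP were -0.45 for Mrc1 and -0.37 for Cd74, with the sign turned, and 0.23 for Pf4, which kept its sign. Without LP replicate 3 those in HP against LP were 0.53 for Mrc1 and 0.78 for Cd74, again turned, and -0.31 for Pf4, which kept its sign. In HA against LP they were -0.97 for Mrc1, -1.23 for Cd74 and -0.56 for Pf4 without HA replicate 3, and 1.21, 1.72 and 1.10 without LP replicate 3. Within title code Hg43, which holds 2 libraries each of HA and HP, the estimate was -0.13 for Mrc1 and -0.022 for Cd74. Within code Hg13, which holds 1 library each, HA minus HP on the log2 CPM scale was 1.24 for Mrc1 and 1.54 for Cd74, with no replicate check.

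**Figure D3:**
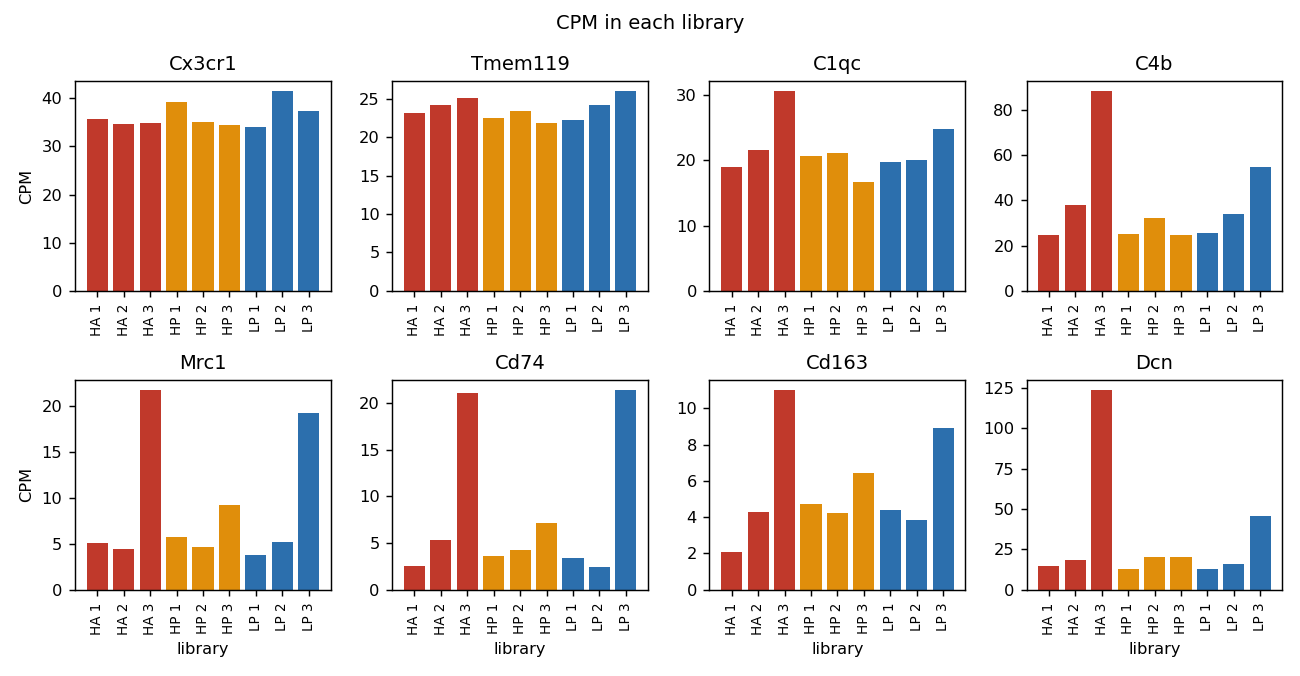
CPM in each of the 9 libraries (bars, HA red, HP orange, LP blue) for the homeostatic genes Cx3cr1 and Tmem119, the complement genes C1qc and C4b, the members Mrc1 and Cd74, the border macrophage marker Cd163 and the meningeal gene Dcn. HA replicate 3 has 124 CPM of Dcn and 88.3 CPM of C4b, the highest bars of those panels, while Cx3cr1 lies between 34.0 and 41.5 CPM throughout.

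Complement genes were not called either, with 0 of 5 in each comparison, beside at most 0.0114% of all genes tested. HA replicate 3 held the highest value of all 5, beside 18.2% of all genes tested. C4b, the mouse gene of complement component C4, which glia express in the brain (ENSMUSG00000073418, chromosome 17, 34728380 to 34743882), stood at 24.8, 38.0 and 88.3 CPM in the HA libraries, 24.9, 32.4 and 24.6 CPM in the HP libraries and 25.4, 33.8 and 54.8 CPM in the LP libraries. HA replicate 3 was highest, LP replicate 3 next and the other libraries lay between 24.6 and 38.0 CPM. The log2 fold change of C4b was 0.88 (SE 0.42, adjusted p = 0.84) in HA against HP, 0.41 (SE 0.41, adjusted p = 0.872) in HA against LP and -0.47 (SE 0.42, adjusted p = 0.9) in HP against LP. Without HA replicate 3 the estimate was 0.20 in HA against HP and -0.27 in HA against LP, and without LP replicate 3 it was 0.77 in HA against LP and -0.11 in HP against LP. Without HA replicate 3 and LP replicate 3 together it was 0.20 in HA against HP, 0.086 in HA against LP and -0.11 in HP against LP. Meningeal markers were highest in the same 2 libraries, as given above, and their part in C4b was not tested. C4b has a near-identical neighbour, C4a, with 22 to 48 counts per library against 448 to 1658 for C4b, so reads split between them are uncertain.

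The 3 chains of C1q, the recognition subunit of the classical pathway, are encoded side by side on chromosome 4 (C1qb 136880129 to 136886187, C1qc 136889804 to 136893065, C1qa 136895917 to 136898803, minus strand). C1qa stood at 34.4, 34.0 and 49.8 CPM in the HA libraries, 38.7, 41.1 and 32.1 CPM in the HP libraries and 32.1, 29.1 and 35.4 CPM in the LP libraries. C1qb stood at 18.1, 20.5 and 34.3 CPM in the HA libraries, 20.04, 23.5 and 18.2 CPM in the HP libraries and 18.9, 22.9 and 27.2 CPM in the LP libraries. C1qc stood at 18.9, 21.6 and 30.6 CPM in the HA libraries, 20.7, 21.1 and 16.6 CPM in the HP libraries and 19.7, 20.1 and 24.8 CPM in the LP libraries. HA replicate 3 was the highest library for each chain, and LP replicate 3 was second for C1qb and C1qc but not for C1qa, where HP replicates 1 and 2 were. Cx3cr1 and Tmem119 in HA replicate 3, at 34.8 and 25.1 CPM, lay within the range of the other libraries. The ratio of C1qa to C1qb in FPKM lay between 1.33 and 2.02 over the 9 libraries and that of C1qc to C1qb between 0.494 and 0.594.

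In HA against HP the log2 fold change was 0.28 (SE 0.18, adjusted p = 0.84) for C1qc, 0.24 (SE 0.23, adjusted p = 0.868) for C1qb and 0.076 (SE 0.15, adjusted p = 0.943) for C1qa. In HA against LP it was 0.29 (SE 0.15, adjusted p = 0.806) for C1qa, and in HP against LP 0.21 (SE 0.15, adjusted p = 0.886) for C1qa and -0.14 (SE 0.18, adjusted p = 0.932) for C1qc. Leaving out HA replicate 3 gave estimates in HA against HP of 0.058 for C1qc, -0.090 for C1qb and -0.12 for C1qa, and that of C1qa in HA against LP was 0.087. Without LP replicate 3 the estimates in HP against LP were 0.28 for C1qa and -0.031 for C1qc, and that of C1qa in HA against LP was 0.36. Within code Hg43 the estimate in HA against HP was -0.051 for C1qc, and within code Hg13, with 1 library each, HA minus HP was 0.88 on the log2 CPM scale. The median of the 5 complement genes in HA against HP was 0.24, -0.065 without HA replicate 3 and -0.15 within code Hg43. C3, the central component of all complement pathways, was low at 0.783 FPKM and stood at 83, 75 and 96 counts in the HA libraries, 65, 97 and 70 counts in the HP libraries and 62, 73 and 86 counts in the LP libraries. Its log2 fold change was 0.22 (SE 0.21, adjusted p = 0.868) in HA against LP, 0.085 without HA replicate 3 and 0.42 without LP replicate 3, and the groups overlapped.

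**Figure D4:**
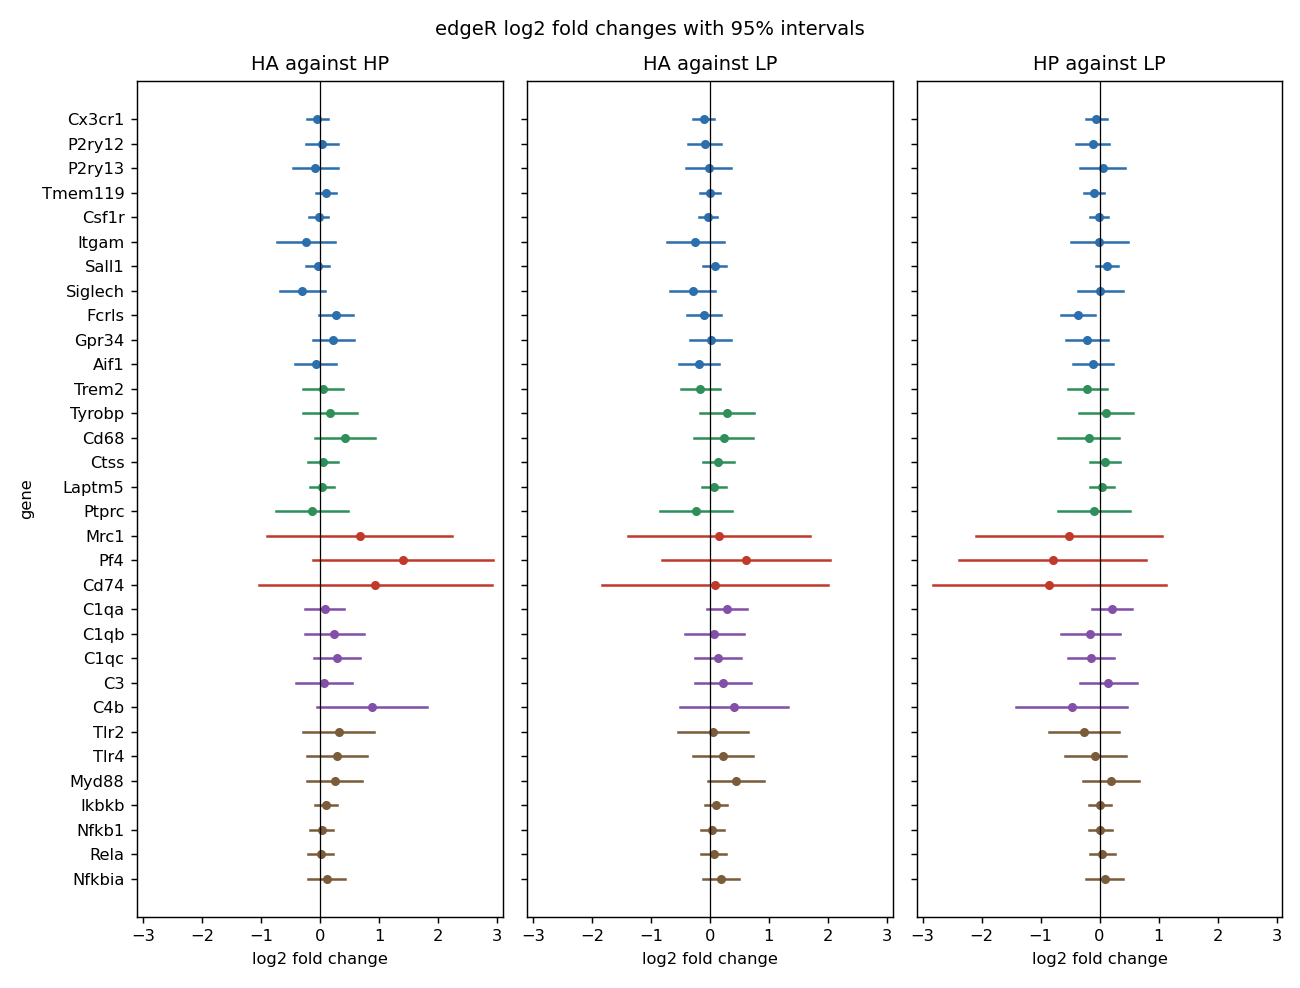
Log2 fold changes (points) with 95% intervals (lines) of the 32 tested genes from the edgeR fit, coloured by role as in the plot of FPKM, for HA against HP, HA against LP and HP against LP. The intervals of Mrc1, Pf4 and Cd74 are the widest. Those of the homeostatic genes are narrower, and the widest of them in HA against HP is that of Itgam, at -0.73 to 0.25. Only the interval of Fcrls in HP against LP leaves out 0, at -0.66 to -0.079, with an adjusted p of 0.782.

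The inflammatory cytokines themselves were at the edge of detection. Tnf had 2, 1 and 1 counts in the HA libraries, 0, 0 and 1 counts in the HP libraries and 0, 2 and 3 counts in the LP libraries. Il1b had 1, 0 and 3 counts in the HA libraries, 0, 3 and 0 counts in the HP libraries and 0, 3 and 0 counts in the LP libraries. Il6, whose promoter is printed above, had 1 count in HP replicate 3 and 0 in the other 8 libraries, and a count of 0 allows up to 3 counts, or 0.138 to 0.167 CPM depending on the library (counting error only). Ccl2, a chemokine that recruits monocytes, had 3, 3 and 16 counts in the HA libraries, 1, 4 and 0 counts in the HP libraries and 0, 0 and 4 counts in the LP libraries, and HA replicate 3 was the one library above 4 counts. These 4 genes did not pass the filter and no fold change is given. Differences in them between groups were therefore not tested in the main fit.

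The receptors and signalling genes upstream were expressed without a call. Of 7 tested, 0 were called in each comparison, beside at most 0.0114% of all genes tested. Nfkbia, the inhibitor that NF-kB itself induces, stood at 22.7, 29.1 and 32.6 CPM in the HA libraries, 25.7, 26.5 and 26.0 CPM in the HP libraries and 23.5, 21.4 and 28.9 CPM in the LP libraries. HA replicate 3 was highest, LP replicate 2 lowest, and the 3 groups overlapped, with log2 fold changes of 0.11 (SE 0.14, adjusted p = 0.907) in HA against HP, 0.19 (SE 0.14, adjusted p = 0.834) in HA against LP and 0.084 (SE 0.14, adjusted p = 0.951) in HP against LP. Leaving out HA replicate 3, these were -0.008 in HA against HP and 0.074 in HA against LP, and without LP replicate 3 they were 0.33 in HA against LP and 0.21 in HP against LP. Myd88, the adaptor of most Toll-like receptors, had the smallest p of these genes and stood at 4.47, 4.01 and 6.18 CPM in the HA libraries, 4.01, 3.68 and 4.65 CPM in the HP libraries and 3.36, 3.03 and 4.41 CPM in the LP libraries. Its log2 fold change was 0.44 (SE 0.21, adjusted p = 0.784) in HA against LP, 0.25 (SE 0.21, adjusted p = 0.862) in HA against HP and 0.19 (SE 0.21, adjusted p = 0.922) in HP against LP. It was, without HA replicate 3, 0.24 in HA against LP and 0.048 in HA against HP. Without LP replicate 3 it was 0.61 in HA against LP and 0.36 in HP against LP. Of its exon bases 11.3% are shared with Acaa1a on the other strand, which had 731.8 counts on average against 81.7 for Myd88, so its value is uncertain. Tlr4 had 0.29 (SE 0.23, adjusted p = 0.853) in HA against HP and 0.16 without HA replicate 3. Tlr2, a receptor for bacterial lipopeptides, had 0.31 (SE 0.27, adjusted p = 0.862) in HA against HP and 0.29 without HA replicate 3. In HP against LP Tlr2 had -0.26 (SE 0.27, adjusted p = 0.916), and -0.23 without LP replicate 3.

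The kinase gene Ikbkb and the NF-kB subunit genes Nfkb1 and Rela were the steadiest of the pathway, with spans of 1.25, 1.23 and 1.28-fold between the lowest and the highest library. Ikbkb had 0.099 (SE 0.084, adjusted p = 0.862) in HA against HP and 0.11 (SE 0.084, adjusted p = 0.845) in HA against LP. Without HA replicate 3 these were 0.077 and 0.087, and without LP replicate 3 that in HA against LP was 0.16. The 95% interval of the fold change of Rela was 0.872 to 1.17 in HA against HP, 0.902 to 1.21 in HA against LP and 0.893 to 1.20 in HP against LP, and that of Nfkb1 was 0.891 to 1.17, 0.899 to 1.18 and 0.880 to 1.155 in the same order. In HA against HP the log2 fold change was 0.014 for Rela and 0.031 for Nfkb1. Without HA replicate 3 these were -0.032 and -0.034. The median log2 fold change of the 7 tested genes was 0.11 in HA against HP, 0.11 in HA against LP and 0.012 in HP against LP. This median without HA replicate 3 was 0.048 in HA against HP and 0.074 in HA against LP. In HP against LP it was -0.042 without LP replicate 1, -0.0066 without LP replicate 2 and 0.13 without LP replicate 3, so its sign depended on the library left out. In HA against HP and HA against LP it was 0.24 and 0.24 without HA replicate 1. HA replicate 3 held the highest value of 6 of the 7 genes, beside 18.2% of all genes tested. Over all roles it held that of 17 of the 32 tested members.

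Further lists of the same systems held no called gene, by edgeR or by DESeq2. By edgeR, at most 0.0114% of all genes tested were called in a comparison. Of 30 further microglial genes, which included the transcription factors Spi1 and Irf8, 0 were called in any comparison (edgeR). An unadjusted p under 0.05 was found for 4, 1 and 3 of them in HA against HP, HA against LP and HP against LP. Over all genes tested the shares were 5.42%, 6.51% and 6.12% in the same order. The share of this list was higher in HA against HP and HP against LP and lower in HA against LP. Mertk, a receptor for dying cells shared by microglia and astrocytes, stood at 22.9, 28.7 and 28.5 CPM in the HA libraries, 29.9, 30.8 and 31.0 CPM in the HP libraries and 33.8, 36.3 and 33.6 CPM in the LP libraries. Each HP library was below each LP library and each HA library below each HP library, with log2 fold changes of -0.37 (SE 0.087, adjusted p = 0.645) in HA against LP, -0.20 (SE 0.087, adjusted p = 0.84) in HA against HP and -0.18 (SE 0.087, adjusted p = 0.829) in HP against LP. Cd84, a receptor of the SLAM family, stood at 0.645, 0.642 and 1.12 CPM in the HA libraries, 1.503, 1.55 and 1.52 CPM in the HP libraries and 0.731, 1.14 and 0.968 CPM in the LP libraries. Its HP libraries lay above all others, with -0.93 (SE 0.30, adjusted p = 0.84) in HA against HP and 0.69 (SE 0.29, adjusted p = 0.81) in HP against LP. Olfml3, a secreted microglial protein, had 0.50 (SE 0.17, adjusted p = 0.84) in HA against HP, Selplg, a ligand of selectins, -0.33 (SE 0.13, adjusted p = 0.84) in HA against HP, and Cd33, a sialic acid-binding receptor, -0.54 (SE 0.20, adjusted p = 0.797) in HP against LP.

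The ligands that sustain microglia were compared with their receptors per length. Cx3cl1, the neuronal ligand of Cx3cr1, averaged 85.5 FPKM, against 8.03 FPKM for Cx3cr1. Il34 averaged 18.5 FPKM and Csf1 5.89 FPKM, against 12.95 FPKM for their receptor Csf1r, so only Il34 of these 2 was above it. Of 5 ligand genes 0 were called, and 2 had an unadjusted p under 0.05, both in HA against LP. Of all genes tested, 6.51% had such a p in that comparison. Il34 had 0.25 (SE 0.14, adjusted p = 0.84) and Csf1 0.15 (SE 0.091, adjusted p = 0.84) in HA against HP, Tgfb1 had 0.40 (SE 0.17, adjusted p = 0.756) and Cx3cl1 -0.12 (SE 0.051, adjusted p = 0.757) in HA against LP.

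Genes that mark activated microglia in mouse disease models were likewise without a call, with 11 of 16 tested and 0 called. Of these, 1 gene, Lpl, had an unadjusted p under 0.05 in HA against LP and in HP against LP. In these comparisons 6.51% and 6.12% of all genes tested had such a p. Lpl, a lipoprotein lipase, stood at 5.29, 6.68 and 5.17 CPM in the HA libraries, 4.62, 5.70 and 5.44 CPM in the HP libraries and 7.5, 7.39 and 7.37 CPM in the LP libraries, with all HA and HP libraries below all LP libraries. Its log2 fold change was -0.38 (SE 0.14, adjusted p = 0.756) in HA against LP and -0.50 (SE 0.14, adjusted p = 0.683) in HP against LP. Apoe, which astrocytes also express, was the highest of them at 1116 FPKM and had 0.093 (SE 0.073, adjusted p = 0.853) in HA against HP. Spp1, Lyz2 and Igf1 had large estimates in HA against HP (1.65, 1.94 and 1.72, each with an adjusted p of 0.84), and without HA replicate 3 these were 0.048, -0.11 and -0.45. Lyz2, a lysozyme gene of blood and border macrophages, stood at 4.83, 6.84 and 60.7 CPM in the HA libraries, 4.51, 5.18 and 9.15 CPM in the HP libraries and 4.09, 6.06 and 24.6 CPM in the LP libraries. Cst7 and Itgax, genes typical of the activated state, stayed under 1 CPM in every library.

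Of 25 further complement genes 18 were tested and 0 called. An unadjusted p under 0.05 was found for 4, 4 and 1 of them in HA against HP, HA against LP and HP against LP. Over all genes tested the shares were 5.42%, 6.51% and 6.12% in the same order. The share of this list was higher in both comparisons of HA and lower in HP against LP. Clu, clusterin, stood at 734, 736 and 788 CPM in the HA libraries, 684, 711 and 663 CPM in the HP libraries and 731, 716 and 748 CPM in the LP libraries, with all HA libraries above all HP libraries and 0.13 (SE 0.048, adjusted p = 0.84), and Csmd1, a neuronal complement inhibitor, had 0.15 (SE 0.055, adjusted p = 0.84). Serping1, the C1 inhibitor, stood at 9.21, 10.2 and 68.6 CPM in the HA libraries, 6.23, 9.12 and 8.52 CPM in the HP libraries and 7.01, 7.44 and 29.9 CPM in the LP libraries, highest in HA replicate 3 and LP replicate 3, with 1.88 (SE 0.81, adjusted p = 0.84) in HA against HP and 0.29 without HA replicate 3. Masp1, a protease of the lectin pathway, had -0.27 (SE 0.096, adjusted p = 0.756) in HA against LP. Of 47 further genes of Toll-like receptors, NF-kB and cytokines 43 were tested and 0 called. An unadjusted p under 0.05 was found for 2, 2 and 0 of them in the same order, lower shares than over all genes tested. For this list the count in HA against HP was 1 without HP replicate 3 and 8 without HA replicate 1. Cxcl10, an interferon-induced chemokine, stood at 0.368, 0.963 and 1.65 CPM in the HA libraries, 0.390, 0.311 and 0.314 CPM in the HP libraries and 0.292, 0.284 and 0.645 CPM in the LP libraries, with 1.53 (SE 0.56, adjusted p = 0.84) in HA against HP and 0.95 without HA replicate 3. Irak4, a kinase next to Myd88, stood at 4.51, 3.64 and 5.01 CPM in the HA libraries, 3.79, 3.52 and 3.82 CPM in the HP libraries and 2.39, 3.46 and 2.96 CPM in the LP libraries. Its HA libraries lay above its LP libraries, with 0.58 (SE 0.19, adjusted p = 0.697). Nfkbie, another inhibitor of NF-kB, had -0.40 (SE 0.18, adjusted p = 0.816) in HP against LP.

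Markers of circulating white cells were low but not absent. Of 8 markers of monocytes and neutrophils 0 were at 0 in all libraries and 2 passed the filter, with a summed CPM of 2.39, 2.35 and 8.73 in HA, 1.22, 3.73 and 3.14 in HP and 1.56, 1.23 and 11.5 in LP, and of 9 lymphocyte markers 1 passed, with Cd3e, Cd3d, Cd8a, Nkg7 and Ms4a1 at 3 counts or fewer in every library. The same 2 libraries, HA replicate 3 and LP replicate 3, were highest on the monocyte and neutrophil list. The summed level of 5 red blood cell markers (4 tested) was 21.0 to 90.2 CPM in HA, 15.7 to 55.9 CPM in HP and 16.6 to 70.0 CPM in LP, with Hba-a2, a near-identical copy of Hba-a1 whose counts are therefore uncertain, at 3 counts or fewer. The part of blood-derived cells in the values of Cd74, Ptprc and Ccl2 was not tested.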

How the data were processed

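RNA of 9 hypothalami, 3 per group, was sequenced from libraries made with a NEBNext Ultra kit from 3 ug of total RNA, per the labels' protocols, and the strand setting of the counting is not given in the sources used here. The authors deposited raw read counts per gene and FPKM values per gene, which scale by gene length and library size. Per the submitters' processing notes, the tools included DESeq2 1.16.1, featureCounts 1.5.0-p3 and HISAT2 2.0.5, and the build named was mm9. Of 54409 gene IDs shared with GENCODE M21, 98.3% had the same start and end as in GRCm38, so coordinates are given as GRCm38.

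Counts were fitted with edgeR 4.0.16 in R 4.3.3 (TMM scaling, default expression filter, quasi-likelihood test, group as the only term, all 9 libraries). Benjamini-Hochberg adjustment ran across the 17546 genes tested. The fit was tested on simulated counts drawn independently for each library, so that test does not cover deviations that libraries share. DESeq2 1.42.0, other scalings, no filter, a replicate block and leaving out libraries were alternatives. Libraries held 18226924 to 21823961 counts, and the precision given covers the spread between libraries. The labels do not say whether pups shared a litter or dam, so p-values reflect spread among these samples alone, and that spread may be technical. Within each role and comparison the genes of smallest p, up to 3, are described with a set of defining genes, and the members and lists were chosen with earlier results of these data known.

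Same-numbered HA and LP libraries deviated together over genes (correlations of 0.256, 0.144 and 0.486). Each passed 0.1, the rule used here for pairing by number. Pairing was fitted only as the replicate block, and the main fit had group as its only term. HA replicate 3 and LP replicate 3 were also the highest in meningeal markers, whose part in these correlations was not tested. Some differently numbered HA and LP libraries correlated as much (HA replicate 2 with LP replicate 1 at 0.251, HA replicate 1 with LP replicate 2 at 0.182), so the values are not particular to shared numbers. For HP and LP (0.137, -0.0276 and 0.159) and for HA and HP (0.0817, 0.00387 and 0.118) not every same-numbered pair passed. With the replicate block 0 of the 32 tested members were called in any comparison, as without it. 1 further microglial gene is not reported here.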

Additional observations from a re-analysis of the deposited data

How the results depend on the processing

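None of the 32 tested genes was called in HA against HP, HA against LP or HP against LP under any alternative, DESeq2 and each left-out library included. The number of all genes called did depend on the setting. In HA against HP it was 2, and 5 with no filter on low counts, 8 with DESeq2, 10 without HA replicate 3 and LP replicate 3 together, 27 within title code Hg43 alone (chosen after seeing the data), and 1 to 9 when each library was left out in turn. In HA against LP it was 0, and 41 with no filter, 27 with DESeq2, 23 without those 2 libraries together, and 0 to 14 leaving out each library. In HP against LP it was 2, and 1 with library totals in place of TMM factors, 53 with no filter, 32 with DESeq2, 37 without those 2 libraries together, and 1 to 21 leaving out each library. With the replicate block as a term it was 4 in HP against LP, and the block changed no call of the 32 genes. The cause of these differences was not tested.

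Estimates of the 32 genes kept their sign under the other scalings, no filter, DESeq2 and the block. Leaving out 1 library turned the sign of up to 10 genes in HA against HP, 8 in HA against LP and 8 in HP against LP, and within title code Hg43 alone 14 did. Tnf, Il1b, Il6 and Ccl2 had too few counts to pass the filter, so these estimates leave them out.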
